A study of Mus musculus with 26 samples.

Results

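Accessible chromatin of control myotubes was compared with that of myotubes depleted of the DRR enhancer RNA, from the 2 ATAC-seq peak lists of each group, which are 4 of the 26 samples of the series. All 4 libraries came from C2C12, a mouse myoblast line, grown in 20% serum and differentiated into myotubes in 2% horse serum. The control group was transfected with control siRNA and the other with siDRR, an siRNA against the DRR RNA, so both groups went through transfection. ATAC-seq inserts adapters into open DNA with the Tn5 transposase, and a peak marks a stretch with many insertions. The labels name no separate cultures, so the spread between libraries of a group may be technical. No annotation of the build of the lists (mm9) was used, so regions are given by position and the myotube label was not checked against marker genes. The level of the DRR RNA after siDRR was not analysed here.

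The DRR, or distal regulatory region, is an enhancer upstream of Myod1, the gene of the muscle-determining transcription factor MyoD. Active enhancers are transcribed, and the RNA made from this one is the subject of the series, whose title ties it to cohesin recruitment and to transcription at a distance from its own locus. Cohesin is a ring complex, with SMC3 as a core subunit, that holds chromatin loops together and gathers at sites of the insulator protein CTCF and at active enhancers and promoters. Enhancers and promoters in use are mostly accessible, so an ATAC peak list is a map of candidate regulatory sites in the myotube.

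Peaks of the 4 lists on chromosomes 1 to 19 and X were merged where they overlapped by 1 bp, which gave 171839 regions, and a region counted as called in a library with at least 1 peak on it. Control replicate 1 held 58137 peaks over 49.1 Mb with a median width of 704 bp. Control replicate 2 held 99547 peaks over 67.3 Mb, at a median of 517 bp. The siDRR lists held 69840 peaks over 45.0 Mb (median 521 bp) and 98591 peaks over 72.1 Mb (median 559 bp). The replicate 2 lists were the longer ones in both groups, and the groups overlapped in every one of these measures. Covered length was 58.2 ± 12.9 Mb in control and 58.6 ± 19.1 Mb with siDRR (SD, n = 2 each). The exact permutation test over libraries, two-sided, gave p = 1, and with 2 against 2 it cannot go below p = 0.333. No list gave read counts, so depth is unknown, and shallower sequencing cannot be told apart from fewer open sites.

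A region called in more than 2 libraries spans both groups by construction, and so do most possible pairs of libraries. All 4 libraries called 27933 regions, which was 16.3% of the union and 41.0 Mb. Another 17591 were called by the replicate 2 libraries of both groups, which had the longest lists, and by neither replicate 1 library. The other pairs across the groups were smaller, with 691 regions called by the replicate 1 libraries alone, 1501 by control replicate 1 and siDRR replicate 2 alone, and 1622 by control replicate 2 and siDRR replicate 1 alone. By comparison 2257 regions were called in both control libraries and in neither siDRR library, and these are called lost below. They made up 5.85% of the 38564 regions called in both control libraries. Gained regions, called in both siDRR and in neither control library, numbered 2480, or 6.26% of the 39632 regions called in both siDRR libraries. The words lost and gained describe peak calls and not a test. Leaving out 1 library drops a condition, and the counts then rose by construction, to as many as 32300 lost without control replicate 1 and 32021 gained without siDRR replicate 1.

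**Figure D1:**
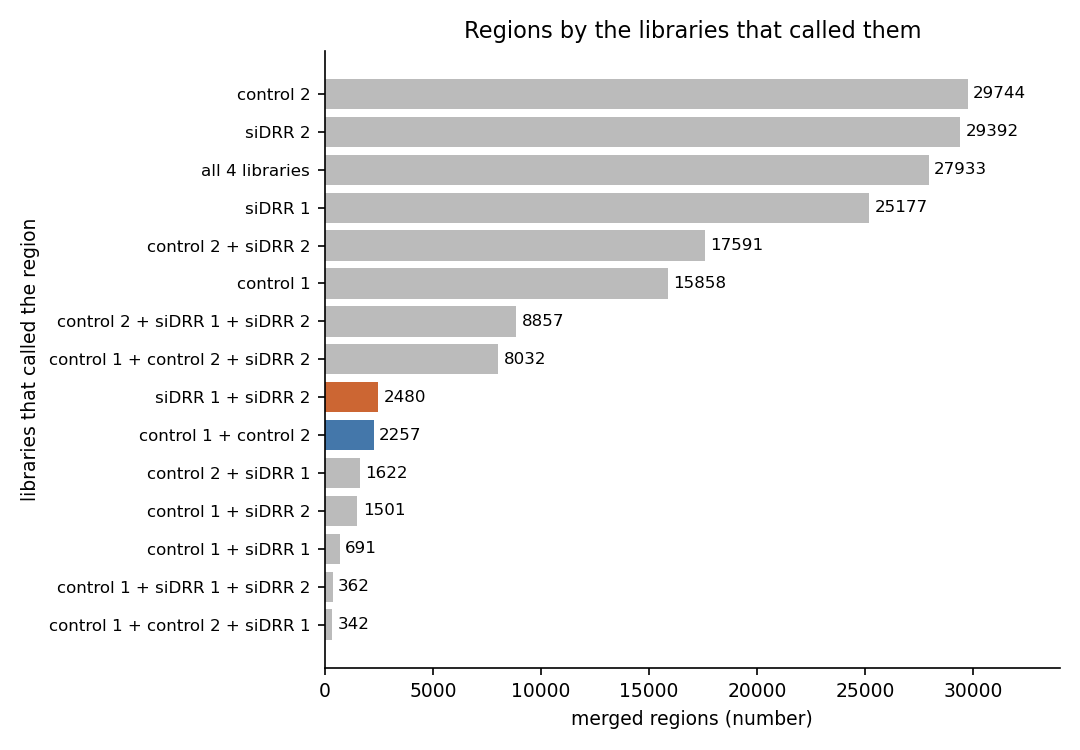
Number of merged regions (x axis) for each combination of libraries that called them (y axis), with the lost set in blue and the gained set in orange. Regions of both siDRR libraries alone (2480) and both control libraries alone (2257) are far fewer than those of the 2 replicate 2 libraries alone (17591). The replicate 2 libraries had the longest lists.

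Agreement between libraries followed the groups only in part. Each replicate 1 library shared the most with its group mate, by a small margin. The replicate 2 libraries, which had the longest lists, shared the most with each other. Of the 56976 regions of control replicate 1, 67.7% were also called in control replicate 2, and 66.4% in siDRR replicate 2. Of the 96378 regions of control replicate 2, 64.8% were called in siDRR replicate 2 and 40.0% in its own group mate. Among the 67464 regions of siDRR replicate 1, 58.7% recurred in its group mate and 57.4% in control replicate 2. For each of the 4 libraries the smaller shares were found in the shorter of the other lists, and a short list caps the share that can recur.

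Loss and gain lay at the weak end of the lists. Peaks were ranked by the deposited score within a list and given percentiles, of which 100 is the top, and the best peak set the value of a region. Among regions called in both control libraries with a mean percentile of 20 to 30, 35.96% of 1343 were lost. Between 50 and 60 the share was 6.67% of 4392, and above 90 it was 1 region of 6870. Gain fell off in the same way, from 40.6% of 1335 regions at 20 to 30, through 7.10% of 4223 at 50 to 60, to 0 of 7693 at 80 to 90 and 0 of 7685 above 90. The replicate 1 libraries missed far more regions than both libraries of a group together, and the replicate 2 libraries only slightly more. In the 50 to 60 bin of control regions, 43.0% were missing from siDRR replicate 1 and 7.67% from siDRR replicate 2. In the same bin of siDRR regions, 51.9% were missing from control replicate 1 and 8.86% from control replicate 2. At this rank most regions missing from a replicate 1 library were still called in the replicate 2 library of the same group.

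**Figure D2:**
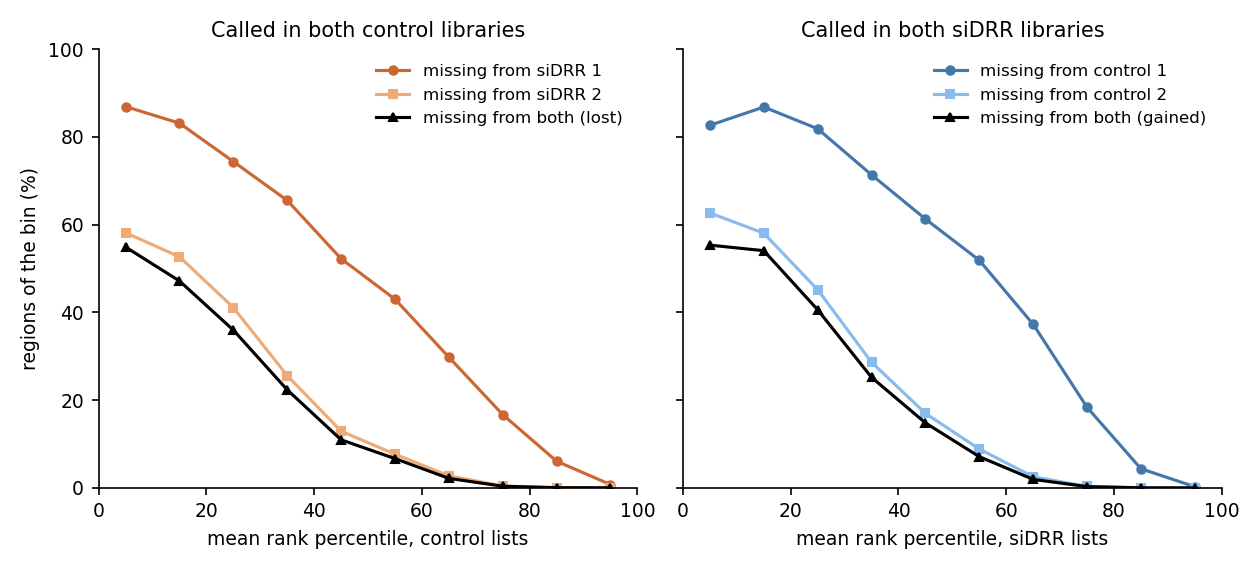
Share of regions (y axis, %) called in both libraries of one group that were missing from each library of the other group, and from both, by mean rank percentile (x axis, bins of 10 points). In the 50 to 60 bin, 6.67% of control regions were lost and 7.10% of siDRR regions were gained, while the replicate 1 libraries alone missed 43.0% and 51.9%.

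Few strongly ranked regions were lost. Only 8 of the 2257 had a mean percentile of 75 or more, and 439 (19.5%) stood at 50 or more. The top one was a 1011 bp region on chromosome 12 (9098401 to 9099411, mm9). Its percentile was 90.04 in control replicate 1 and 91.2 in control replicate 2. Neither siDRR list had a peak in it, although an accessible region called in all 4 libraries began 906 bp away. Under siSmc3, a knockdown of the cohesin subunit set against the same control libraries, it was called in both lists at 87.3 and 88.4. Position 10 on chromosome 1 (174159100 to 174159843) was similar, at 68.3 and 80.1 in control, in no siDRR list, and at 64.3 and 78.6 under siSmc3.

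The second region, on chromosome X (147389899 to 147390667), stood at 84.0 and 84.1 in the control lists, and the nearest siDRR peak lay 44947 bp away. Under siSmc3 it was called in replicate 2 alone, at 40.1. Next, a region on chromosome 3 (137188623 to 137189710), stood at 86.5 and 79.4, with the nearest siDRR peak 12967 bp off. A further 3 of the 10 regions, on chromosome 10 (98345035 to 98345924), chromosome X (140400752 to 140401342) and chromosome 10 (110296167 to 110297003), were called in no siDRR and no siSmc3 library. None of the 10 overlapped an SMC3 region of both myotube libraries or a ChIRP region, where ChIRP marks sites at which probes pulled down the DRR RNA.

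Gained regions reached lower ranks at the top. Again 8 had a mean percentile of 75 or more, with a maximum of 78.2 against 90.6 for the lost. The first was on chromosome 17 (13132844 to 13134053), at 79.1 and 77.4 in the siDRR lists. The next 2, on chromosome 13 (11658605 to 11659367) and chromosome 14 (45452597 to 45453519), stood at 86.2 and 69.7 and at 74.8 and 79.9. Nearest control peaks lay 2254, 16627 and 4953 bp away. A region on chromosome 2 (50705335 to 50706262), at 74.9 and 78.3, was the only one of the 10 that neither siSmc3 library called.

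Position 7, on chromosome 5 (52456107 to 52456745), was the only one of the 10 at an SMC3 region of both myotube libraries. Its ATAC peaks stood at 78.8 and 71.8 in the siDRR lists and were absent from control. SMC3 was called there in all 6 lists. The percentiles of its SMC3 peaks were 83.1 and 81.3 in the myoblast lists, 24.3 and 54.1 in the myotube lists without siDRR and 57.9 and 45.8 after siDRR. Cohesin was therefore called at this site in every state, and an ATAC peak was called in control myotubes in neither library.

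Lost and gained regions had similar sizes and distances. Their median widths were 679 and 603 bp, with quartiles of 574 and 841 bp and of 505 and 755 bp. The median distance to a region of all 4 libraries was 21037 bp for the lost and 19300 bp for the gained. No background distance was computed, so these values do not say whether the regions lay near or far. Within 1 kb of a region of all 4 libraries lay 6.11% of lost and 4.44% of gained regions. A peak of the other group lay within 1 kb of 453 lost (20.1%) and 486 gained regions (19.6%). Within 500 bp there was one for 260 lost (11.5%) and 286 gained regions (11.5%). Whether such regions are edges of peaks of the other group was not tested.

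Every chromosome held both kinds. The share of control regions lost ran from 4.50% on chromosome 7 to 7.15% on chromosome 8, around the 5.85% of the whole. The share gained ran from 4.10% on chromosome X to 8.46% on chromosome 15. Chromosome X was the one with the widest gap in favour of loss, with 56 of 911 regions lost (6.15%) and 36 of 879 gained. Of 1545 windows of 1 Mb with at least 10 control regions, 477 held no lost region and 32 held 5 or more. The densest by count were on chromosome 6 (91000001 to 92000000), with 8 of 36 lost, and chromosome 8 (85000001 to 86000000), with 8 of 51. Of the siDRR regions in these windows, 5 of 34 and 2 of 37 were gained. A window on chromosome 18 (54000001 to 55000000) lost 6 of 15, gained none, and kept 5 regions in all 4 libraries. For gain the densest was on chromosome 8 (94000001 to 95000000), with 8 of 39, followed by chromosome 14 (122000001 to 123000000) with 7 of 28 and chromosome 15 (88000001 to 89000000) with 7 of 31.

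Gained regions met cohesin sites more often than lost ones. The SMC3 set was the regions called in both myotube SMC3 libraries not labelled as DRR knockdown, 13885 in all. It overlapped 372 of 2480 gained regions (15%, exact binomial 95% interval 13.6 to 16.5), 77 of 2257 lost regions (3.41%, 2.70 to 4.25) and 10.1% of the regions of all 4 libraries. Over the whole union the share was 6.52%. These intervals cover counting error only, and regions are not replicates of a condition. Rank changed these orders in part. Between percentiles of 40 and 50, 19.1% of 508 gained and 2.28% of 394 lost regions met SMC3, and between 20 and 30 the shares were 12.5% of 542 and 4.14% of 483. Below 10 they were 2.41% of 83 gained and 3.57% of 84 lost regions. Shared regions stood above gained ones at some ranks, with 23.0% against 15.01% between 30 and 40. Weighted to the ranks of the lost regions, the shares were 19.0% of shared and 14.9% of gained regions, so the order of these sets turned. The weighted shared value leans on few regions at low ranks. Between 10 and 20 there were 19 shared and 291 lost regions, and between 20 and 30 there were 121 and 483. Width was not adjusted for: shared regions had a median of 1322 bp and gained ones of 603 bp, and wider regions overlap more by construction. With SMC3 regions of both myoblast libraries the shares were 21.2% of gained, 5.45% of lost and 23.4% of shared regions. With those of myotubes given siDRR they were 8.83%, 1.73% and 5.73%.

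The same share also differed between replicates. Of the 17591 regions that only the replicate 2 libraries called, 11.7% met myotube SMC3, against 2.32% of the 691 that only the replicate 1 libraries called. Set library against library, regions of siDRR replicate 2 that control replicate 2 lacked met SMC3 in 7.77% of cases, and the reverse set in 3.45%. For the replicate 1 pair these shares were 5.44% and 4.27%. The widest difference was between siDRR replicate 2 and control replicate 1, at 9.75% of the regions found only in the first and 1.77% of those found only in the second. Between the control libraries themselves, regions found only in replicate 2 met SMC3 in 7.54% of cases and those found only in replicate 1 in 2.50%. Between the siDRR libraries these shares were 8.80% and 1.86%. Regions of control replicate 2 that siDRR replicate 1 lacked met it in 6.59%, more than the 2.77% of the reverse set, so that this was the only one of the 4 pairings between groups with the higher share on the control side. Without siDRR replicate 2 the order of the sets turned, at 7.74% of 10407 lost and 2.67% of 27894 gained regions. The gained share was 7.52% without siDRR replicate 1, and the lost share 1.71% without control replicate 2.

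**Figure D3:**
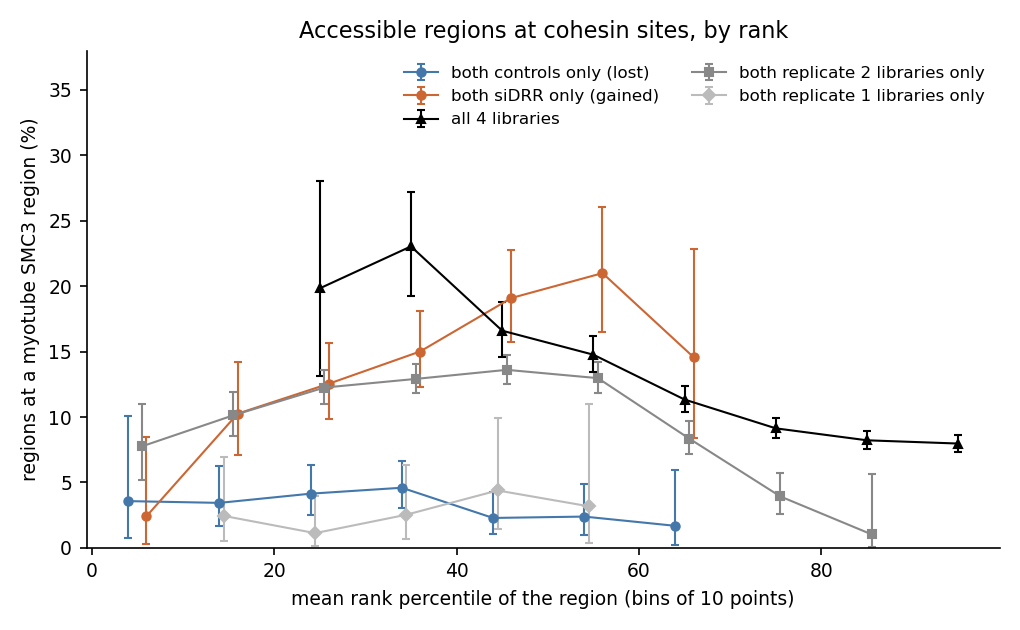
Share of regions at a myotube SMC3 region (y axis, %, bars are exact binomial 95% intervals) by mean rank percentile (x axis), for bins of at least 50 regions. Gained regions lie above lost ones from the 10 to 20 bin upward but not in the 0 to 10 bin, and regions of both replicate 2 libraries only lie above those of both replicate 1 libraries only in each bin that shows both.

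Looked at from the cohesin side, more SMC3 sites carried an ATAC peak in each siDRR library than in the control library of the same number. Of the 13885 myotube SMC3 regions, 28.1% had a peak in control replicate 1 and 53.7% in control replicate 2. The siDRR libraries had one at 34.3% and 63.2%. The groups overlapped, with a mean difference of 7.84 percentage points (p = 0.667, two-sided exact permutation test, n = 2 each). With every list held to its 58137 best peaks the shares were 28.1% and 36.1% in control and 31.5% and 45.1% with siDRR (p = 0.667, same exact permutation test). As a share of peaks, 7.23% and 8.39% of control peaks and 7.50% and 9.82% of siDRR peaks lay at these sites.

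Sites that kept or missed SMC3 after siDRR were read separately. At the 7144 myotube SMC3 regions also called in both SMC3 lists of myotubes with siDRR, ATAC peaks stood at 28.0% and 57.0% of sites in the control libraries and at 35.5% and 67.1% in the siDRR libraries. At the 895 called in neither, the values were 25.5% and 37.0% against 24.2% and 43.8%. At equal length these 895 sites gave 25.5% and 24.7% in control and 22.6% and 28.2% with siDRR. The groups overlapped at these sites and also at the kept ones. At equal length the 7144 kept sites gave 28.0% and 38.3% in control and 32.3% and 48.8% with siDRR. At the 895 sites without an SMC3 call after siDRR, 6 of the 208 accessible control regions were lost (2.88%). The share lost was 1.84% of 1850 where SMC3 was kept in both lists and 2.34% of 1580 where it was kept in 1, against 5.85% of all control regions. Whether the kept and missing sites differ in their change was not tested.

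**Figure D4:**
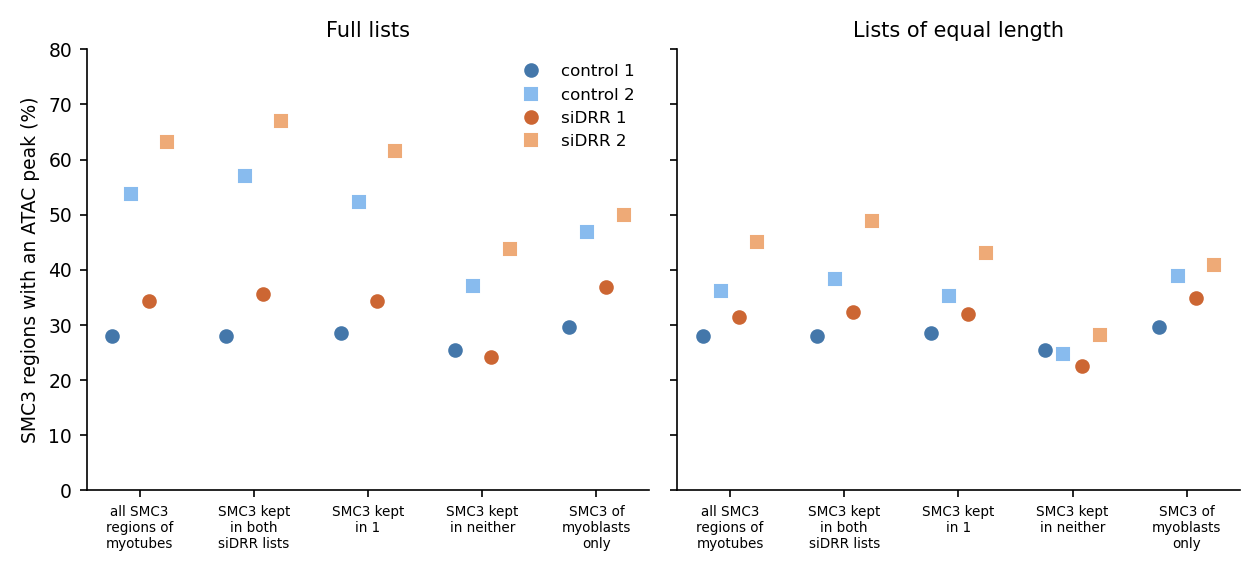
Share of SMC3 regions with an ATAC peak (y axis, %) in each of the 4 libraries, for 5 sets of SMC3 regions, with full lists (left) and lists of equal length (right). Replicate 2 libraries (squares) lie above replicate 1 libraries (circles) in every set with full lists, and at sites kept in both siDRR SMC3 lists the siDRR points (35.5% and 67.1%) lie above the control points of the same number (28.0% and 57.0%).

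Sites touched by the DRR RNA were few in the comparison. ChIRP regions found with both probe pools numbered 1146, each merged from overlapping summits widened by 250 bp on either side. A summit in 1 replicate of each pool was enough. They met 71 of the 27933 regions of all 4 libraries (0.254%), 6 of the lost and 2 of the gained. Of 91 control regions at such a site, 6 were lost (6.59%, against 5.85% of all control regions), and of 85 siDRR regions 2 were gained (2.35%, against 6.26%). ATAC peaks stood at 92 and 118 of the 1146 sites in the control libraries and at 82 and 120 in the siDRR libraries, so the groups overlapped. With lists of equal length the control libraries had 92 and 93 and the siDRR libraries 77 and 88, without overlap (exact permutation p = 0.333, two-sided, the smallest that 2 against 2 allow). Taken alone, pool 1 met 3.90% of lost, 2.34% of gained and 5.89% of shared regions, and pool 2 met 2.39%, 1.65% and 4.90%. Shared regions are wider, which raises any overlap by construction.

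Regions called in all 4 libraries allowed a test of rank. There each library ranked the same 27933 regions, and the ranks were turned into normal scores, so that 0 is the middle of a list and 1 is about 1 SD above it. A rank says where a region stands relative to the others of its library and is not a level of accessibility. With limma and Benjamini-Hochberg adjustment, 10 regions passed an adjusted p of 0.05 (0.0358% of those tested), 9 lower (0.0322%) and 1 higher (0.00358%) under siDRR. At an unadjusted p under 0.05, limma gave 2324 regions (8.32%), of which 900 had higher and 1424 lower scores (3.22% and 5.10% of those tested). The 10 calls stood close to the threshold, with the lowest adjusted p from limma at 0.0488, and none was made with percentiles or summed scores in place of normal scores. Without control replicate 2 limma called 126 higher and 52 lower, and without siDRR replicate 2 it called 23 and 374.

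The region with the largest fall was on chromosome 8 (110550352 to 110551772, 1421 bp). It stood at percentiles of 81.8 and 71.6 among the shared regions in the control libraries and at 1.68 and 3.42 in the siDRR libraries. Its normal score fell by 2.71 ± 0.472 (SE, n = 2 each, limma adjusted p = 0.0488). Another on chromosome 4 (15993225 to 15994079, 855 bp) went from 84.2 and 62.8 to 2.22 and 4.07, and its score fell by 2.54. In both of them the siDRR libraries agreed within 2 percentile points, at the bottom of the shared map, while the control libraries were in the upper part.

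In 3 of the other falls, the siDRR libraries stood between percentiles of 27 and 68 and closer together than in the falls described next. On chromosome 8 (106546265 to 106547610) the percentiles were 93.2 and 93.5 in control and 27.3 and 37.9 with siDRR. On chromosome 4 (114609812 to 114610861) they were 91.8 and 90.2 against 29.4 and 38.6. A broad region on chromosome 6 (40975658 to 40978270, 2613 bp) went from 96.2 and 97.8 to 60.2 and 67.2. In these the control libraries stood close to each other and both siDRR libraries were far below.

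In 4 regions siDRR replicate 1 stood well below siDRR replicate 2. On chromosome 15 (30966610 to 30967686) the percentiles were 86.0 and 83.9 in control and 6.56 and 27.2 with siDRR. On chromosome 4 (76412129 to 76413953) the control percentiles were 99.1 and 99.3, and those with siDRR 42.2 and 91.4. A region on chromosome 8 (120673695 to 120675015) stood at 90.4 and 92.4 against 12.5 and 45.9. One on chromosome 11 (88460356 to 88461539) stood at 97.1 and 92.2 against 29.3 and 62.9. The only region that rose was on chromosome 12 (10142589 to 10143720, 1132 bp), from 18.7 and 71.5 in control to 97.3 and 95.8 with siDRR, a difference in score of 1.99 ± 0.363 (SE, limma adjusted p = 0.0488). It met an SMC3 region of both myoblast libraries, and none of the 10 met one of both myotube libraries or a ChIRP region of both pools.

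**Figure D5:**
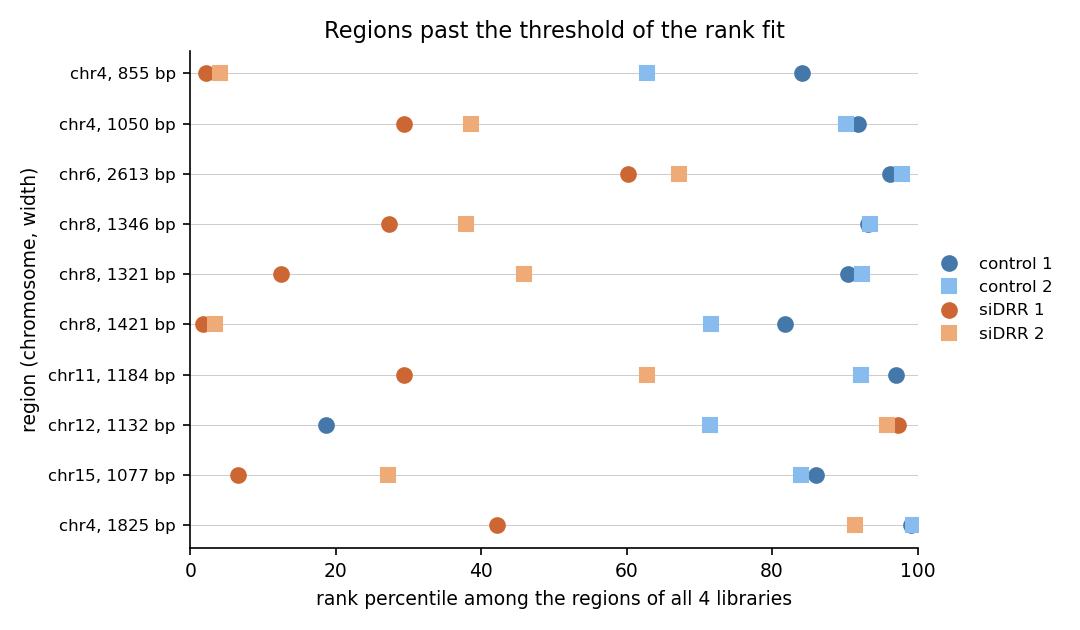
Rank percentile among the 27933 shared regions (x axis) in each of the 4 libraries, for the 10 regions past the threshold of the rank test (y axis, by chromosome and width). In 9 the siDRR points lie left of both control points, and in the chromosome 12 region they lie right of them.

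The other 8 regions named for large differences without overlap missed the threshold in this fit. The largest in favour of siDRR, a chromosome 4 region (137951247 to 137953241), had control percentiles of 0.0394 and 0.181 and siDRR percentiles of 30.9 and 24.9 (limma adjusted p = 0.208). Next came chromosome 5 (100362618 to 100363240), at 0.0251 and 0.104 against 37.0 and 9.80 (limma adjusted p = 0.259). Both were near the bottom of the shared map in both control libraries. One on chromosome 2 (52811085 to 52811985) stood at 0.342 and 32.3 against 77.1 and 74.99 (limma adjusted p = 0.138). Among the lower ones, chromosome 10 (109538886 to 109539924) stood at 62.1 and 46.3 in control and at 0.630 and 1.42 with siDRR (limma adjusted p = 0.114). The remaining ones, higher on chromosome 4 (133023860 to 133025628) and chromosome 12 (14075528 to 14076405) and lower on chromosome 10 (129751157 to 129752031) and chromosome 5 (107573202 to 107574047), had limma adjusted p between 0.0899 and 0.257.

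Of the 4 gaps between libraries of different groups, 3 were wider than the gaps within the groups. The median absolute gap in score between the control libraries was 0.389 and between the siDRR libraries 0.388. Between the replicate 2 libraries of the 2 groups it was smaller, at 0.320, and between the replicate 1 libraries larger, at 0.444. The gap was 0.412 between control replicate 1 and siDRR replicate 2 and 0.448 between control replicate 2 and siDRR replicate 1. In 5407 regions (19.4%) both siDRR scores lay above both control scores, and in 5039 (18.0%) below. With so few libraries such separation is common in each direction without any difference between the groups. The shares were not tested against that rate.

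Shared regions at cohesin sites were read the same way. For the 2823 at SMC3 of both myotube libraries the median score was -0.22 and -0.42 in control and -0.19 and -0.27 with siDRR. The groups overlapped (p = 0.667, two-sided exact permutation test), and of these regions 23.2% lay above control without overlap and 13.0% below, against 19.4% and 18.0% of all. For the 6545 at SMC3 of both myoblast libraries the medians were -0.021 and -0.021 in control and 0.082 and 0.038 with siDRR (exact permutation p = 0.333, two-sided, the smallest possible with n = 2 each). Among regions with an unadjusted limma p under 0.05, 28.3% of those with higher and 11.6% of those with lower scores met myoblast SMC3, against 23.4% of all tested. For myotube SMC3 these shares were 10.2% and 6.39%, against 10.1% of all tested. Width went with the replicate number: the 911 regions of 3000 bp or more had median scores of 0.55 and 0.54 in the replicate 1 libraries and 0.29 and 0.27 in the replicate 2 libraries, in the order control, siDRR.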

How the data were processed

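Each library had 1 deposited list with position, name and a score per peak, made by the authors' peak caller, whose scale is not stated. Per the submitters' processing notes the build was mm9. The notes name MACS2, MACS 1.4.2, Bowtie2 2.2.4, Bowtie 1.1.1, cutadapt 1.12, bcl2fastq 2.17.1 and CASAVA 1.8.2, without their roles. Not given in the sources used here are the tool behind the ATAC lists, its threshold, the read filters and any shift of insertion sites. Scores started at 30 in the ATAC lists and were used only for ranks inside a list. The 1 mitochondrial peak of each list was left out. At most 5 intervals recurred exactly between any pair of lists.

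Starts were made 1-based, and overlaps needed 1 bp. The rank test used limma 3.58.1 with a trend in R 4.3.3, fitted on all regions of the 4 libraries. On simulated scores for 27933 regions it called 4 of 67 planted shifts of 1 SD, 45 of 67 of 2 and 58 of 66 of 3, with 7 calls among 27733 unchanged regions. Named are the 10 lost and 10 gained regions of highest mean rank, the 5 largest rises and falls without overlap, and 3 windows each way. The regions past the threshold of the rank test were named after their values were seen. Members and lists were chosen with earlier results of these data known. Alternatives were other overlap and merge rules, equal list length, the better-scoring 50%, other rank scales, the replicate number as a block, and each replicate left out. Gene names and sequences were not used here, because the reference tables given are of another build.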

Additional observations from a re-analysis of the deposited data

How the results depend on the processing

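Counts of lost and gained regions stayed within 1.5 times of 2257 and 2480 with the 50% overlap rule, merging within 100 bp and equal length (2214 and 1910), and were 1067 and 1286 with the better-scoring 50%. The share of loss among both was 47.6%, and 53.7% at equal length. Leaving out a library drops a condition by construction, and the counts then ran from 2610 to 32300 lost and from 2840 to 32021 gained. The share at SMC3 of lost, gained and shared regions was 7.67%, 20.3% and 34.6% with SMC3 of either myotube library. It was 4.61% and 20.3% for lost and gained at equal length, and 4.50%, 19.2% and 8.95% for lost, gained and shared with the better-scoring 50%. Weighting to the ranks of the lost, an alternative chosen after seeing the data, gave 19.0% for the shared and 14.9% for the gained. Without 1 replicate the lost ran from 1.71% to 7.74%, the gained from 2.67% to 15.1% and the shared from 9.84% to 11.0%. The difference in covered length, siDRR minus control, was 0.361 Mb and turned to -2.62 Mb at equal length, with p = 1 in both exact permutation tests. In the rank test the replicate block gave 38 higher and 174 lower regions, among them all 10 of the fit without it. It also called 7 of the 8 other named regions, at limma adjusted p from 0.00212 to 0.0395, and log2 scores called 1 of them (chromosome 5, 107573202 to 107574047, limma adjusted p = 0.0471). The scores of same-numbered libraries deviated from their group means with a correlation of 0.183 across regions, and 2 pairs do not show that the numbers pair the samples. With rank percentiles, summed scores, equal length and the better-scoring 50%, limma called 0 regions higher and 0 lower, at lowest adjusted p of 0.684, 0.0815, 0.0592 and 0.0591, and 2004, 2238, 2144 and 1574 regions had an unadjusted p under 0.05. Log2 scores gave 1 and 12. Without 1 replicate the calls ran from 1 to 126 higher and from 6 to 374 lower, with a lone library assumed to vary like the others. They were 126 and 52 without control replicate 2 and 23 and 374 without siDRR replicate 2. The cause of these changes was not tested.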

Other observations

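A stretch of chromosome 8 (81000001 to 98000000, 17 Mb, chosen after its values were seen) stood apart. It held 33.2 control regions per Mb, against 14.9 in the other windows with any region, and 4 of the 20 windows densest in control regions. Chromosome 15 held 5 of those 20. Lost regions were 9.38% of its 565 control regions and gained regions 12.1% of its 611 siDRR regions, against 5.80% and 6.17% elsewhere. Its regions were wide: those of all 4 libraries had a median of 2119 bp, against 1316 bp elsewhere, and 55.6% reached 2000 bp, against 16.1%. Lost regions of 2000 bp or more numbered 7 in it and 5 elsewhere, and such gained regions 4 and 5. The widest lost region was there (97512596 to 97517859, 5264 bp), with control percentiles of 18.3 and 52.2, and so was the widest gained one (95022342 to 95025026, 2685 bp), at 40.3 and 33.1 in the siDRR lists. Peaks of this stretch had median widths of 1116, 601, 811 and 705 bp in control replicates 1 and 2 and siDRR replicates 1 and 2, against 700, 516, 518 and 557 bp elsewhere. The widths and densities stood apart in all 4 lists, and their part in the loss and gain counts was not tested.

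The lost regions at myotube SMC3 sites of highest rank included 1 on chromosome 10 (23329078 to 23329868). Control ATAC percentiles there were 62.3 and 71.1, and the nearest siDRR peak lay 17 bp away. SMC3 stood there at 73.1 and 92.6 in the myotube lists and at 97.0 in replicate 2 of the siDRR SMC3 lists. A second, on chromosome 3 (102046342 to 102047088), stood at 59.2 and 66.9 in control, and SMC3 was called in both siDRR SMC3 lists at 64.6 and 61.2. Of the gained regions at SMC3 sites, chromosome 13 (71595808 to 71596734) stood at 68.1 and 73.5 with siDRR and 17989 bp from the nearest control peak, with SMC3 at 90.2 and 87.6 in the myotube lists.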
